A study of Mus musculus with 9 samples.

Results

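The arrays of both shRNAs against the NEDD8-conjugating enzymes, 3 for Ube2m and 3 for Ube2f, were set as 1 side against the 3 control shRNA arrays, so that all 9 of the 9 arrays of the series were used and the 6 targeted arrays were compared with 3 controls. The cells were NIH 3T3, an immortalized mouse fibroblast line. Every culture, the controls included, received a retroviral shRNA vector, and total RNA was taken 5 days later. The growth label shared by all samples calls the cells NIH 3T3 cells that express Ube2f, and does not say whether that refers to an added copy. The labels name a single vector per target and no clone, so an effect of the hairpin sequence itself cannot be told apart from loss of its target within a group. The 3 arrays of a group are labelled as biological replicates, with no statement of separate transductions, and p-values measure the spread between them.

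NEDD8 is a small protein related to ubiquitin that is attached to cullins, the scaffolds of the cullin-RING ubiquitin ligases, and switches these ligases on. A pair of conjugating (E2) enzymes carries it in animals: UBE2M works with the RING protein RBX1 on most cullins, and UBE2F works with RBX2 on CUL5. The COP9 signalosome removes NEDD8 again.

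Signals are the linear MAS5 signal of a probe set, and fold changes are differences of log2(signal + 16), a scale that understates changes of dim genes. Among the 10613 genes tested, 463 (4.36%) passed an adjusted p of 0.05 in limma in the pooled contrast, the mean of the 2 targeted group means minus the control mean. Of these, 195 rose (1.84%) and 268 fell (2.53%). Without regard to the test, the 6 targeted arrays lay wholly above the controls for 348 genes (3.28%) and wholly below for 461 (4.34%). Regardless of direction these were 809 genes (7.62%). Genes that met both conditions are called common genes here: 141 rose (1.33%) and 175 fell (1.65%), 316 in all (2.98%). Each hairpin alone, against the same 3 controls, gave 1031 genes for Ube2m shRNA (9.71%, of which 381, 3.59%, rose and 650, 6.12%, fell) and 551 for Ube2f shRNA (5.19%, of which 237, 2.23%, rose and 314, 2.96%, fell). The choice of common genes used all 9 arrays, so their folds are descriptions. The 12 largest changes of each direction are shown with both hairpins side by side.

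**Figure D1:**
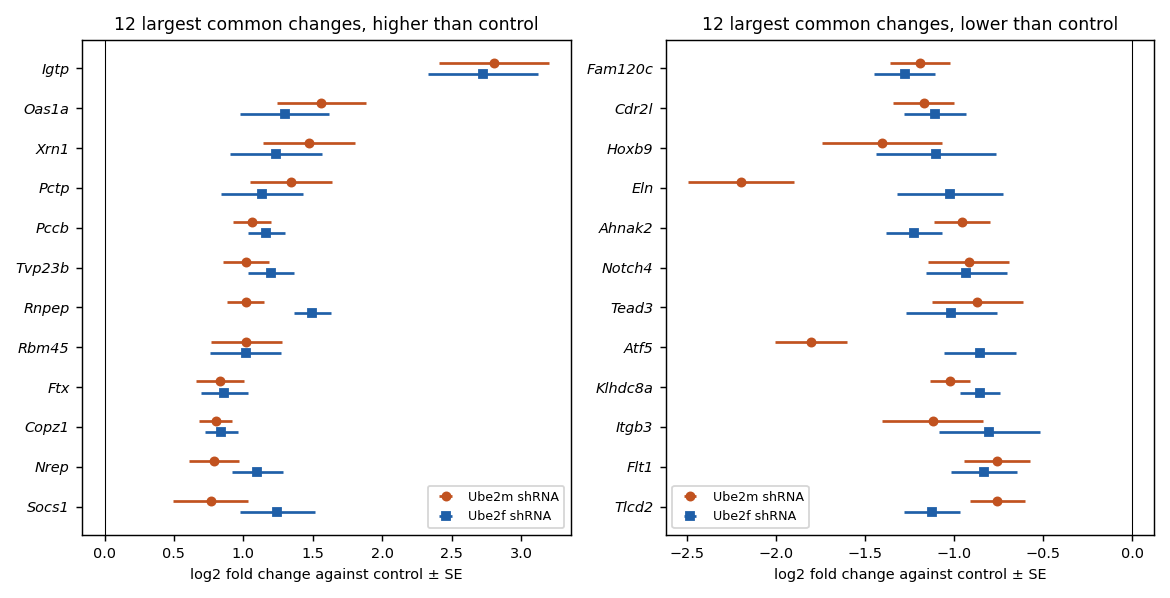
Log2 fold change against control, on log2(signal + 16), for the 12 common genes of each direction ranked by the smaller of their 2 responses, shown as the fitted value with its SE for Ube2m shRNA (circles) and Ube2f shRNA (squares). Both hairpins share the 3 control arrays. Igtp stands at 2.80 and 2.73, and Eln and Atf5 lie further from 0 with Ube2m shRNA than with Ube2f shRNA.

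Most common changes were moderate. The median log2 fold change of the genes that rose was 0.567, with 0.59 for Ube2m shRNA and 0.544 for Ube2f shRNA, and that of the genes that fell was -0.541, with -0.548 for each hairpin. Over all genes tested the median was -0.0184. Within replicates 1 and 2 the medians of the common genes were 0.555 and -0.581, and within replicate 3 they were 0.562 and -0.476. Replicate 3 helped to choose these genes, so this likeness is no independent check. Genes chosen from replicates 1 and 2 alone had medians nearer 0 in replicate 3. With Ube2m and Ube2f shRNA these were 0.254 and 0.208 for genes that rose, and -0.264 and -0.203 for genes that fell. A change of at least 1.5-fold with both hairpins was seen for 37 common genes that rose and 38 that fell, and a change of at least 2-fold for 8 and 4. The smallest called change was 0.327 among the genes that rose and 0.323 in size among those that fell. Of the 141 genes that rose, 4 had a control mean below 53.8, the signal under which genes were removed, and so entered the test through the targeted arrays.

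The values at the border of the rule were close. Inside it, the lowest targeted array of Tapbp read 1465.5 and its highest control 1465.0, and the highest targeted array of Tns3 read 5075.4 against a lowest control of 5086.5. Outside it, the lowest targeted array of Mlec read 1684.0 against a highest control of 1692.3, and the highest targeted array of Ankrd50 read 1163.3 against a lowest control of 1160.3. Another 147 genes passed the test with overlapping arrays, and 129 of those differed between the hairpins, beside 1672 (15.8%) of all genes tested. Ube2f itself is one of the 129. Choosing called genes that overlap favours genes changed mostly by a single hairpin.

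The arrays differed among themselves in ways that bear on these counts. The trimmed mean signal was 500 on each array, but the median signal was 63.8 to 73.2 in replicate 3 and 53.1 to 58.3 in replicates 1 and 2. Control replicate 1 had an actin 3' to 5' ratio, a sign of RNA quality, of 1.82 against 1.24 to 1.35 elsewhere. Without control replicate 1 the common genes numbered 98 (53 that rose and 45 that fell), of which 91 were among the 316. Without Ube2m replicate 1, Ube2m replicate 2 or Ube2f replicate 1 they numbered 184, 169 and 161. Centring each array on its median gave 120, of which 20 rose and 100 fell, and moved the split between directions. Centring left 19 of the 141 genes that rose and 70 of the 175 that fell. When the targeted arrays were fitted as 1 group of 6, 28 of the 316 passed. The part of these array differences in the results was not tested.

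**Figure D2:**
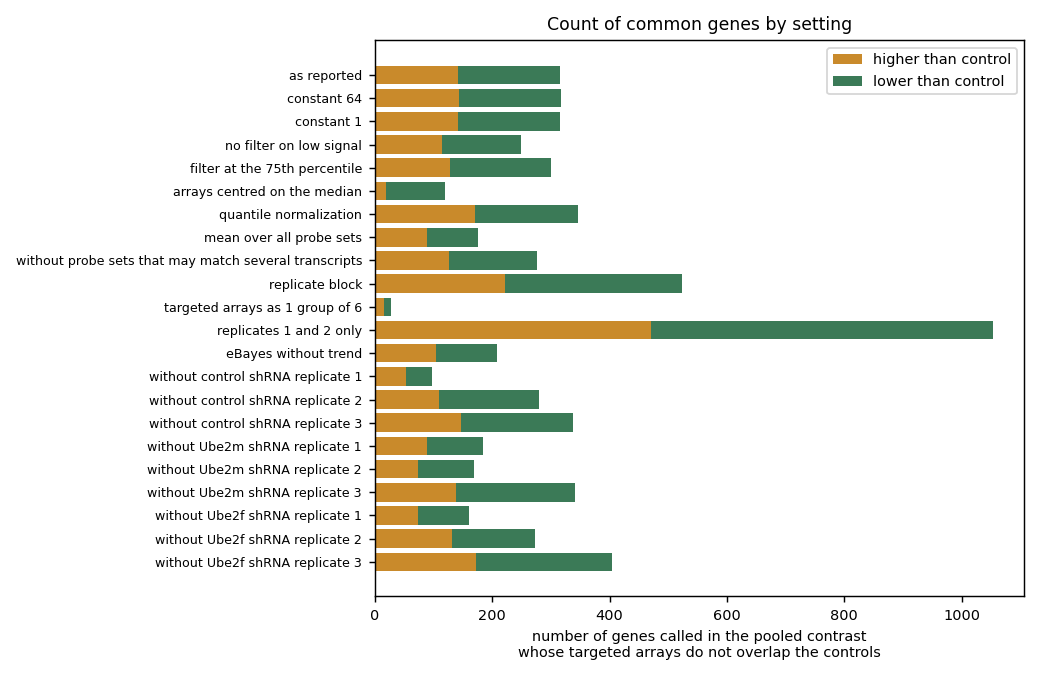
Number of common genes (called in the pooled contrast, with the 6 targeted arrays not overlapping the 3 controls) under each processing setting, as bars from 0 split into genes that rose (orange) and fell (green). The count is 316 as reported, 98 without control replicate 1, 120 after median centring and 28 with the targeted arrays as 1 group.

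Leaving out each of the 9 arrays in turn kept 82 of the 316 common genes (25.9%) in every case, 41 of each direction. Among the 62 common genes that were named by rule or named afterwards, 10 passed under every alternative in which they were tested: Igtp, Pccb, Tvp23b and Rnpep rose, and Cdr2l, Ahnak2, Klhdc8a, Tlcd2, Cops7a and Zmat3 fell.

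**Figure D3:**
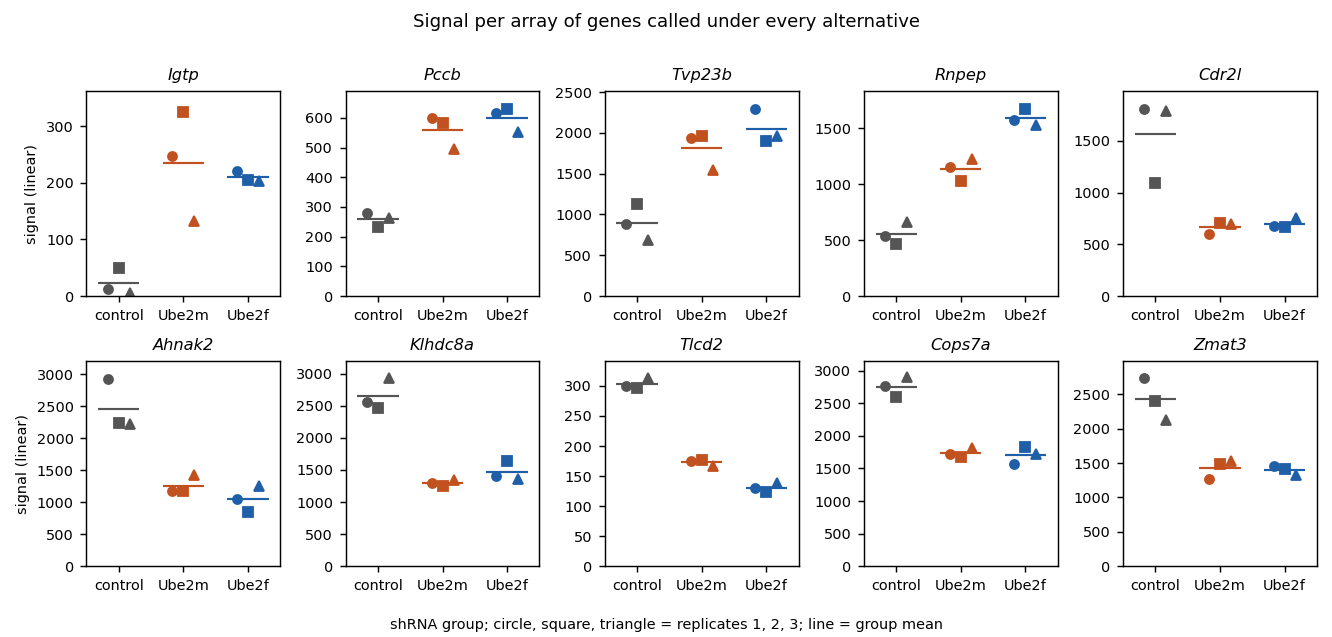
Linear signal in each of the 9 arrays for the 10 named genes called under every alternative, by shRNA group, with circle, square and triangle for replicates 1, 2 and 3 and a line at the group mean. In each panel the 6 targeted arrays lie wholly above or wholly below the 3 controls.

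The targets were checked first. Ube2f read 2366.7, 2492.0 and 2757.1 in the controls, 134.9, 117.9 and 143.8 with Ube2f shRNA, and 3028.6, 3140.0 and 2700.4 with Ube2m shRNA. On this probe set, which may match several transcripts, its signal was low only in the arrays labelled with its own hairpin, with a log2 change of -4.11 (SE 0.12, limma adjusted p = 7.45e-10). The pooled value of -1.95 came from that hairpin alone. Of its 5 other probe sets, 3 with control signals of 873.5 to 2637.6 read 83.5 to 164.3 with Ube2f shRNA, and a dim one was lower in every Ube2f array. The remaining one read 97.7, 45.3 and 124.8 in the controls and 58.4, 114.2 and 136.9 with Ube2f shRNA, and it gave the pooled value of -0.151 (adjusted p = 0.892) without probe sets marked by suffix. No probe set used here names Ube2m as its single gene, so its reduction was not checked.

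The common genes of the interferon response are shown first. Interferons signal through JAK kinases and STAT factors, which bind motifs in the promoters of antiviral and immunity genes. Of 48 listed interferon-stimulated genes 41 had a probe set and 26 were tested; 5 rose (Igtp, Oas1a, Ifit1, Gbp2 and Trim25) and none fell, beside 1.84% and 2.53% of all genes tested, and all 5 were common genes. The median over the 26 was 0.22, with 0.26 for Ube2m shRNA and 0.27 for Ube2f shRNA, against -0.0184 over all genes. The filter lets in genes that are dim in controls only through the targeted arrays. With no filter, 9 of the 41 lay wholly above the controls and 1 wholly below, where 2.39% and 2.93% of all 18193 genes did.

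The promoters of the genes of this group that hold the core of the interferon-stimulated response element (ISRE core: the letters GAAA, any 2 bases, and GAAA again) are printed from RefSeq on GRCm38.p6, each from 250 bases before to 50 bases after an annotated start. Both strands were searched, N is any base, and matches of the ISRE core and of TTCNNNGAA, the gamma-activated sequence bound by STAT dimers, are in capitals; the 2 motifs may overlap. Igtp, an interferon-inducible GTPase, lies on the plus strand at chr11:58199306-58199605. Oas1a, an enzyme that makes 2'-5' oligoadenylate on sensing double-stranded RNA, lies on the minus strand at chr5:120907476-120907775. Ifit1, which binds foreign RNA caps, lies on the plus strand at chr19:34640639-34640938, and Gbp2, a guanylate-binding protein, on the plus strand at chr3:142620413-142620712. Socs1, the feedback inhibitor of JAK kinases, lies on the minus strand at chr16:10785487-10785786.
Igtp: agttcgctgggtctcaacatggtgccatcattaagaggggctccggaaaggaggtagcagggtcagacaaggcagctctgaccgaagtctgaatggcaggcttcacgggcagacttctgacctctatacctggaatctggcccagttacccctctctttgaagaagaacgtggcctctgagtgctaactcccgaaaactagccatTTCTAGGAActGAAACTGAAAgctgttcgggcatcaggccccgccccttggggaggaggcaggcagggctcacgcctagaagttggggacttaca
Oas1a: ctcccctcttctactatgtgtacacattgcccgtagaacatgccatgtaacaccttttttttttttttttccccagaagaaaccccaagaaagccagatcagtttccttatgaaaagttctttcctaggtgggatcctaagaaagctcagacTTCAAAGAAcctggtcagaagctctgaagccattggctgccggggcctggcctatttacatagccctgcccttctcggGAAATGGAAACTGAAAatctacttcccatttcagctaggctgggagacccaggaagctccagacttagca
Ifit1: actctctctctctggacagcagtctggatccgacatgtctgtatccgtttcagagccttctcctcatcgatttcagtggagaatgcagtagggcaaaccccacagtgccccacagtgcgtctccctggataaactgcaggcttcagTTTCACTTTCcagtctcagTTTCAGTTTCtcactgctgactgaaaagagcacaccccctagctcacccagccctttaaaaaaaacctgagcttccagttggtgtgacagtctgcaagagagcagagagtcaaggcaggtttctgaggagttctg
Gbp2: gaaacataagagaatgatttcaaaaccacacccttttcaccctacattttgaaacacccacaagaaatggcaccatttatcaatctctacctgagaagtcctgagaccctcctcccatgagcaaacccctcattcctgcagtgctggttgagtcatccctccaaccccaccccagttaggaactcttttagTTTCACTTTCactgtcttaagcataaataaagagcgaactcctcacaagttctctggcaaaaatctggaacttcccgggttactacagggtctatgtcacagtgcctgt
Socs1: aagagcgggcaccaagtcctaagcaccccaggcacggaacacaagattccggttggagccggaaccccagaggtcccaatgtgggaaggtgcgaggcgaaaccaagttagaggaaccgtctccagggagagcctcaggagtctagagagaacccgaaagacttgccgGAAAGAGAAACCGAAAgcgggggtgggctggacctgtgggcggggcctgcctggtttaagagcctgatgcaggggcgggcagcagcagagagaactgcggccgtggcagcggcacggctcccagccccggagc

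The ISRE core matched at 2 positions in the promoters of Oas1a, Ifit1 and Socs1, and at 1 in those of Igtp and Gbp2. In Oas1a and Socs1 the 2 matches overlap, share a GAAA and form 1 stretch, while those of Ifit1 are separate. The promoter of Trim25 held neither motif, and that of Socs3 held TTCNNNGAA only. Promoters were matched for 108 of the 141 common genes that rose and 139 of the 175 that fell. The ISRE core was present in 9 of 137 promoters (6.57%) of the genes that rose and 5 of 180 (2.78%) of those that fell, beside 2.82% of 11106 promoters of all genes tested and 3.44% of the whole table. TTCNNNGAA was present in 8.76% and 2.78%, beside 6.57% of the promoters of genes tested. The antioxidant response element core TGACNNNGC was present in 13.1% and 11.1%, beside 14.3%. TGANTCA (the AP-1 site) was found in 4.38% and 7.78% beside 4.93%, CACGTG (the E-box) in 10.9% and 8.89% beside 10.0%, TGACGTCA in 1.46% and 2.78% beside 3.11%, and CCAAT in 47.4% and 35.0% beside 38.3%. These shares describe letters in the windows. Igtp, Oas1a, Ifit1 and Socs1, which hold the ISRE core, are the 4 common genes that rose from control means below 53.8. They entered the test through the targeted arrays, so the ISRE share of the genes that rose depends in part on the filter.

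Igtp read 12.9, 50.2 and 4.6 in the controls, 247.6, 325.2 and 133.1 with Ube2m shRNA, and 221.6, 204.5 and 202.6 with Ube2f shRNA. All 6 targeted arrays lay far above the controls, which were all below 53.8. Its pooled log2 change was 2.77 (SE 0.34, adjusted p = 0.00104), with 2.80 and 2.73 for the hairpins. Since its controls were that dim, the size of this change is uncertain: it was 1.73 with a constant of 64 and 3.77 with a constant of 1, and 2.4 to 3.25 with single arrays left out, with the call kept in each.

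Oas1a read 35.5, 17.2 and 22.6 in the controls, 89.2, 164.7 and 73.2 with Ube2m shRNA, and 81.3, 68.8 and 103.0 with Ube2f shRNA, a log2 change of 1.43 (SE 0.28, adjusted p = 0.0137). Ifit1 read 39.8, 33.9 and 40.1 in the controls, 112.0, 92.3 and 120.6 with Ube2m shRNA, and 49.8, 73.5 and 93.5 with Ube2f shRNA, a log2 change of 0.94 (SE 0.23, adjusted p = 0.0386). Both genes were dim in the controls, all below 53.8, and both groups of targeted arrays lay above them. The adjusted p of Oas1a was 0.051 without control replicate 2. That of Ifit1 was 0.0584 to 0.122 without any array other than Ube2f replicate 1, namely control replicates 1, 2 and 3, Ube2m replicates 1, 2 and 3, and Ube2f replicates 2 and 3. With 1 group of 6 targeted arrays they were 0.0614 and 0.144.

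Trim25, a ubiquitin ligase of the RIG-I pathway, read 1037.9, 923.2 and 1095.4 in the controls, 1330.1, 1375.3 and 1397.7 with Ube2m shRNA, and 1344.9, 1377.7 and 1452.7 with Ube2f shRNA. The levels of the 2 targeted groups overlapped, and the log2 change was 0.43 (SE 0.091, adjusted p = 0.0196). Its 2 other probe sets, at 0.428 and 0.518, also did not overlap the controls. Gbp2 read 132.2, 136.5 and 137.1 in the controls, 180.7, 194.1 and 154.8 with Ube2m shRNA, and 275.2, 276.5 and 235.3 with Ube2f shRNA, a log2 change of 0.61 (SE 0.14, adjusted p = 0.0332) that was larger with Ube2f shRNA (0.88 against 0.34). The adjusted p of Trim25 was 0.0656, 0.0742 and 0.0578 without control replicate 1, control replicate 2 and Ube2m replicate 2. That of Gbp2 was 0.0646 to 0.119 without each of control replicates 1, 2 and 3, Ube2m replicates 1 and 2, and Ube2f replicates 1 and 2, and 0.108 with the mean of its probe sets. Median centring gave 0.18 for Trim25, 0.183 for Gbp2 and 0.0701 for Ifit1.

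**Figure D4:**
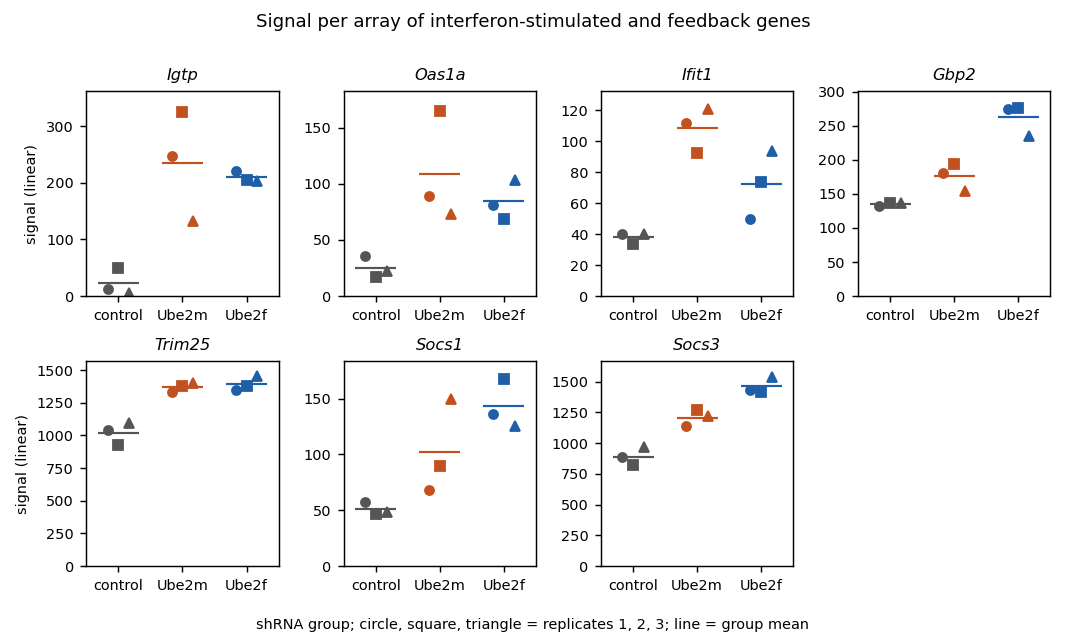
Linear signal in each of the 9 arrays for interferon-stimulated genes and the inhibitors Socs1 and Socs3, by shRNA group, with circle, square and triangle for replicates 1, 2 and 3 and a line at the group mean. Igtp, Oas1a and Ifit1 are below 53.8 in all 3 controls, and every targeted array lies above the controls of its gene.

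Of 29 tested genes of the JAK-STAT list, 2 rose and 1 fell, beside 1.84% and 2.53% of all genes tested, and all 3 were common genes, beside 1.33% and 1.65%. Socs1 read 57.8, 46.6 and 48.3 in the controls, 67.7, 89.4 and 149.4 with Ube2m shRNA, and 136.1, 167.1 and 125.7 with Ube2f shRNA, a log2 change of 1.00 (SE 0.24, adjusted p = 0.0318). The control mean of Socs1, 50.9, is below 53.8, so that it entered the test through its targeted arrays. Socs3, the feedback inhibitor of the IL-6 receptor family, read 882.9, 820.3 and 965.7 in the controls, 1134.8, 1268.3 and 1218.7 with Ube2m shRNA, and 1433.7, 1411.6 and 1535.6 with Ube2f shRNA, a change of 0.57 (SE 0.093, adjusted p = 0.00532). SOCS proteins are also substrate receptors of CUL5 ligases, whose part in these changes was not tested. The group means of Socs1 and Socs3 were higher with Ube2f shRNA, but the difference between hairpins did not pass in limma (adjusted p = 0.275 and 0.113). The Ube2m and Ube2f arrays of Socs1 overlapped. The Socs1 call was lost without control replicates 1, 2 or 3, Ube2m replicate 2 or Ube2f replicates 1 or 2 (adjusted p 0.0639 to 0.0989), and with median centring (0.0652). Socs3 lost its call with median centring (0.072), with the mean of its probe sets (0.29) and without probe sets whose suffix marks possible matches to several transcripts, where its value was 0.106 (adjusted p = 0.804).

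Osmr, the oncostatin M receptor, read 1240.9, 1188.7 and 1224.3 in the controls, 631.8, 638.2 and 661.7 with Ube2m shRNA, and 878.5, 778.5 and 1043.5 with Ube2f shRNA. It fell by 0.67 on the log2 scale (SE 0.10, adjusted p = 0.00423), more with Ube2m shRNA (-0.90 against -0.44). With the mean of its probe sets the adjusted p was 0.154. Among 10 tested antigen-processing genes 1 rose and none fell, beside 1.84% and 2.53% of all genes tested. The gene that rose was Tapbp, the peptide-loading chaperone tapasin (0.62, limma adjusted p = 0.00451). Its Ube2m arrays, at 2428.7, 2659.3 and 2566.7, carried that change, while the Ube2f arrays, at 1486.6, 1465.5 and 1475.1, lay barely above the controls, at 1465.0, 1202.1 and 1138.9.

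Of 12 tested genes of NEDD8 conjugation and removal none rose and 2 fell, Ube2f and Dcun1d2. Of 18 cullin, CAND and COP9 signalosome genes 1 fell, and of 26 cullin adaptors and receptors 1 fell; of all genes tested 1.84% rose and 2.53% fell. The list medians were 0.0046, -0.023 and 0.043, close to the -0.0184 of all genes.

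Cops7a, a subunit of the COP9 signalosome, read 2772.4, 2592.2 and 2904.4 in the controls, 1730.1, 1672.6 and 1811.8 with Ube2m shRNA, and 1574.5, 1831.5 and 1724.0 with Ube2f shRNA. The targeted arrays formed a single range well below the controls. It fell by 0.67 (SE 0.088, adjusted p = 0.00136), with -0.66 and -0.68 for the hairpins, and passed under every alternative. Its other probe set differed by -0.188 and overlapped the controls.

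Dcun1d2, a NEDD8 ligase cofactor, read 1078.0, 1072.8 and 1005.0 in the controls, 732.4, 785.7 and 781.9 with Ube2m shRNA, and 864.9, 810.6 and 795.8 with Ube2f shRNA, a log2 change of -0.40 (SE 0.090, adjusted p = 0.0281). Dtl, the CUL4 substrate receptor CDT2, read 1001.3, 1104.9 and 1091.8 in the controls, 925.1, 885.4 and 918.0 with Ube2m shRNA, and 563.0, 511.6 and 646.4 with Ube2f shRNA, a log2 change of -0.55 (SE 0.10, adjusted p = 0.0103). Dcun1d2 was low in both targeted groups, and Dtl lowest with Ube2f shRNA. The Dcun1d2 call was lost without control replicates 1 or 2, Ube2m replicates 1 or 2, or Ube2f replicates 1 or 2 (adjusted p 0.0515 to 0.109), with median centring (0.117) and with the mean of its probe sets (-0.139, adjusted p = 0.592). Of the 5 other probe sets of Dtl, 4 were higher in the targeted arrays, from 0.545 to 1.47, and 1 was lower at -0.168; their mean with the kept one was 0.459 (adjusted p = 0.379), so the direction of Dtl depends on the probe set.

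Pccb and Pcx, which encode biotin-dependent carboxylases, both rose. Pccb, the beta subunit of propionyl-CoA carboxylase, read 280.3, 231.9 and 264.4 in the controls, 600.2, 582.1 and 495.1 with Ube2m shRNA, and 617.7, 630.8 and 551.9 with Ube2f shRNA. The targeted signals were about alike in both groups and all well above the controls, with a log2 change of 1.12 (SE 0.12, adjusted p = 0.000303). Pcx, pyruvate carboxylase, which was picked after its values were seen, read 323.7, 230.3 and 203.4 in the controls, 571.0, 535.1 and 536.3 with Ube2m shRNA, and 335.7, 421.7 and 397.6 with Ube2f shRNA, a change of 0.85 (SE 0.15, adjusted p = 0.00787). The lowest Ube2f array of Pcx lay just above the highest control, and median centring gave an adjusted p of 0.0558.

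Tvp23b, Copz1 and Sec24d rose too. Tvp23b, a Golgi membrane protein, read 885.9, 1123.9 and 686.1 in the controls, 1933.4, 1961.8 and 1541.4 with Ube2m shRNA, and 2288.7, 1896.6 and 1956.5 with Ube2f shRNA, a log2 change of 1.11 (SE 0.14, adjusted p = 0.00136). Copz1, the zeta subunit of the COPI coat, read 1838.2, 2160.4 and 1788.8 in the controls, 3614.9, 3439.7 and 3047.7 with Ube2m shRNA, and 3489.2, 3786.1 and 3131.7 with Ube2f shRNA, a change of 0.82 (SE 0.10, adjusted p = 0.000966). In both genes all 6 targeted arrays lay well above the controls, at a like level in the 2 targeted groups. Sec24d, a COPII cargo adaptor picked after its values were seen, had means of 2443 ± 149 in the controls, 3540 ± 169 with Ube2m shRNA and 3259 ± 201 with Ube2f shRNA (SD, n = 3), a change of 0.47 (adjusted p = 0.00938). Median centring gave adjusted p-values of 0.0624 for Copz1 and 0.217 for Sec24d, and the mean over its probe sets gave 0.341 (adjusted p = 0.462) for Copz1.

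Rnpep, aminopeptidase B, read 540.0, 469.1 and 660.3 in the controls, 1150.9, 1028.6 and 1227.6 with Ube2m shRNA, and 1569.5, 1666.2 and 1524.9 with Ube2f shRNA. The 3 groups did not overlap one another, with the Ube2f arrays highest. The pooled log2 change was 1.26 (SE 0.12, adjusted p = 0.000126), and the hairpins differed, at 1.02 and 1.5 (adjusted p = 0.0278).

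Among the other large increases, Pctp, the phosphatidylcholine transfer protein, read 328.6, 399.0 and 142.8 in the controls, 716.5, 800.2 and 606.1 with Ube2m shRNA, and 530.8, 798.9 and 522.3 with Ube2f shRNA, a change of 1.24 (SE 0.25, adjusted p = 0.0181). Its other probe set, at 1.63, also did not overlap. Xrn1, the cytoplasmic 5' to 3' exoribonuclease, read 56.9, 110.5 and 55.5 in the controls, 198.6, 173.7 and 329.8 with Ube2m shRNA, and 193.5, 120.1 and 286.2 with Ube2f shRNA, a change of 1.35 (SE 0.29, adjusted p = 0.0201). One Ube2f array of Xrn1 lay just above the highest control. Its change was 0.94 within replicates 1 and 2 and 2.18 within replicate 3, whose arrays had the higher median signals.

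Ftx, the long noncoding RNA gene near Xist, read 107.4, 128.9 and 102.9 in the controls, 206.2, 230.2 and 202.7 with Ube2m shRNA, and 232.2, 196.3 and 227.1 with Ube2f shRNA, a change of 0.85 (SE 0.15, adjusted p = 0.00829). Tet1, the 5-methylcytosine dioxygenase, which was picked after its values were seen, read 175.9, 172.0 and 139.9 in the controls, 335.5, 422.8 and 420.4 with Ube2m shRNA, and 278.1, 250 and 307.9 with Ube2f shRNA, a change of 0.96 (SE 0.14, adjusted p = 0.00319). The 2 other probe sets of Tet1, at 0.868 and 0.965, also lay wholly above the controls. Rbm45, an RNA-binding protein, changed by 1.02 (adjusted p = 0.0232) and Nrep, a neuronal regeneration-related protein, by 0.94 (adjusted p = 0.00596), each with all 6 targeted arrays above the controls.

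These calls did not all hold. Pctp gave an adjusted p of 0.0603 without control replicate 1. Xrn1 gave 0.125, 0.0589 and 0.0506 without control replicate 1, control replicate 3 and Ube2f replicate 1, and 0.127 with the mean of its probe sets. Rbm45 gave 0.134, 0.0672 and 0.0599 without control replicate 1, control replicate 3 and Ube2m replicate 2. Median centring gave 0.0785 for Pctp, 0.0934 for Rbm45 and 0.0507 for Ftx, and the mean over probe sets gave 0.102 for Tet1.

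Among the genes that fell, Cdr2l, a relative of the cerebellar degeneration antigen CDR2, read 1806.6, 1093.1 and 1786.4 in the controls, 603.0, 708.1 and 695.5 with Ube2m shRNA, and 672.6, 670.7 and 755.0 with Ube2f shRNA. Control replicate 2 was the lowest control and still lay above every targeted array. Its log2 change was -1.14 (SE 0.15, adjusted p = 0.00141), while its other probe set differed by -0.276 with overlap.

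Klhdc8a, a Kelch domain protein, read 2560.7, 2473.9 and 2932.5 in the controls, 1291.3, 1250.7 and 1345.5 with Ube2m shRNA, and 1401.2, 1637.6 and 1353.7 with Ube2f shRNA, a log2 change of -0.94 (SE 0.097, adjusted p = 0.000264). Tlcd2, a TLC domain membrane protein, read 299.2, 296.2 and 312.5 in the controls, 175.2, 176.1 and 166.3 with Ube2m shRNA, and 129.7, 122.7 and 138.7 with Ube2f shRNA, a change of -0.94 (SE 0.13, adjusted p = 0.00234). Replicates of Tlcd2 lay close together in every group, and the gap to the controls was far wider than their spread. Fam120c read 786.1, 775.3 and 753.5 in the controls, 370.6, 325.0 and 295.2 with Ube2m shRNA, and 301.0, 242.6 and 403.2 with Ube2f shRNA, a change of -1.23 (SE 0.15, adjusted p = 0.000904). The mean over its probe sets gave -0.69 (adjusted p = 0.0569).

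Ahnak2, a giant scaffold protein under the plasma membrane, read 2919.4, 2232.6 and 2225.6 in the controls, 1173.3, 1170.5 and 1420.7 with Ube2m shRNA, and 1048.6, 840.4 and 1250.5 with Ube2f shRNA, a log2 change of -1.09 (SE 0.14, adjusted p = 0.00111). Its paralog Ahnak, picked after its values were seen, read 19095, 17687 and 19649 in the controls, 13655, 13726 and 13222 with Ube2m shRNA, and 8037.6, 8701.3 and 9261.0 with Ube2f shRNA, a change of -0.80 (SE 0.082, adjusted p = 0.000264). Both paralogs were lower with each hairpin, and for Ahnak the groups formed 3 separate ranges with Ube2f shRNA lowest. Ahnak differed between the hairpins (adjusted p = 0.000668).

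Of 19 tested p53 targets none rose and 2 fell, both common genes, beside 1.84% and 2.53% of all genes, and the list median was 0.12. Zmat3, an RNA-binding zinc finger protein induced by p53, read 2739.6, 2407.6 and 2130.1 in the controls, 1265.4, 1488.9 and 1528.5 with Ube2m shRNA, and 1454.9, 1411.2 and 1329.0 with Ube2f shRNA. Its targeted arrays overlapped each other and lay well below the controls, with a log2 change of -0.77 (SE 0.10, adjusted p = 0.00168). Phlda3, a p53-induced inhibitor of AKT, had means of 8121 ± 670 in the controls, 5414 ± 252 with Ube2m shRNA and 6442 ± 608 with Ube2f shRNA (SD, n = 3), a change of -0.46 (adjusted p = 0.0148). Phlda3 gave an adjusted p of 0.0959 without control replicate 1 and 0.144 with median centring.

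Of 34 tested genes of ATF4 and the unfolded protein response 3 rose and 3 fell (beside 1.84% and 2.53% of all genes tested), and the common ones that are named by the rule were Atf5, Sel1l and Hyou1. Atf5, a stress-responsive transcription factor, read 5910.9, 3102.0 and 3561.9 in the controls, 1202.5, 1231.5 and 1008.7 with Ube2m shRNA, and 2015.1, 2635.3 and 2055.5 with Ube2f shRNA. It fell by 1.33 (SE 0.17, adjusted p = 0.00139), with -1.80 for Ube2m shRNA and -0.86 for Ube2f shRNA, which differed (adjusted p = 0.00719). Control replicate 1 was the highest of its arrays.

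Sel1l, the adaptor of the HRD1 ligase in ER-associated degradation, had means of 1489 ± 189 in the controls, 911 ± 37.7 with Ube2m shRNA and 1047 ± 112 with Ube2f shRNA (SD, n = 3), a change of -0.60 (adjusted p = 0.00965). Hyou1, an ER chaperone, read 1059.2, 1098.3 and 1215.9 in the controls, 1569.6, 1506.5 and 1877.7 with Ube2m shRNA, and 1413.7, 1555.7 and 1620.7 with Ube2f shRNA, a change of 0.49 (adjusted p = 0.0185). The 2 other probe sets of Hyou1 also lay wholly above the controls, at 0.809 and 1.00, and the 4 of Sel1l were all lower, from -0.34 to -0.66. Without control replicate 1 the adjusted p was 0.065 for Sel1l and 0.0983 for Hyou1, and Hyou1 gave 0.0583 without control replicate 2 and 0.109 with median centring.

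Of 24 tested HIF targets and glycolysis genes 3 rose and 1 fell, beside 1.84% and 2.53% of all genes tested. Slc2a1, the glucose transporter GLUT1, read 3860.6, 3735.6 and 3662.6 in the controls, 9760.3, 9384.7 and 7827.3 with Ube2m shRNA, and 5401.3, 5401.3 and 4145.6 with Ube2f shRNA. Its change was 0.82 (SE 0.11, adjusted p = 0.00136), larger with Ube2m shRNA (1.25 against 0.40, adjusted p of the difference 0.000657). P4ha2, a subunit of collagen prolyl 4-hydroxylase, changed by 0.51 (adjusted p = 0.00967), from 1494 ± 130 in the controls to 2050 ± 113 and 2222 ± 169 (SD, n = 3). Pfkl, the liver-type phosphofructokinase, changed by -0.70 (adjusted p = 0.00831), and another of its probe sets at -0.635 also did not overlap. Pfkl gave an adjusted p of 0.0589 without control replicate 1 and 0.842, with a value of -0.131, without probe sets whose suffix marks possible matches to several transcripts. Median centring gave 0.0787 for Slc2a1 and 0.158 for P4ha2.

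Of 23 tested elastic fibre and proteoglycan genes none rose and 4 fell (Eln, Fbln5, Ltbp2 and Prelp), beside 2.53% of all genes that fell. Eln was the only common gene among them, beside 1.65% of all genes, and the median was -0.47 with Ube2m shRNA and -0.0036 with Ube2f shRNA. Eln, which encodes elastin, read 1295.8, 1102.2 and 499.3 in the controls, 181.5, 138.2 and 242.6 with Ube2m shRNA, and 483.2, 366.5 and 456.4 with Ube2f shRNA. Control replicate 3 lay just above the highest Ube2f array, and the change was -2.13 within replicates 1 and 2 and -0.56 within replicate 3. It fell by 1.61 pooled (SE 0.26, adjusted p = 0.00506), with -2.19 and -1.02 for the hairpins, which differed (adjusted p = 0.0177). Its other probe set, at -2.33, also did not overlap.

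Of 32 tested collagens and their processing enzymes 2 rose and 2 fell, beside 1.84% and 2.53% of all genes tested. Lox, lysyl oxidase, which cross-links collagen and elastin, read 21776, 19461 and 18899 in the controls, 13319, 14213 and 12838 with Ube2m shRNA, and 14247, 14198 and 13684 with Ube2f shRNA, a change of -0.54 (SE 0.082, adjusted p = 0.0035). All targeted arrays lay in a narrow range below the controls. P3h1, prolyl 3-hydroxylase, changed by 0.62 (adjusted p = 0.0109), but by 0.117 (adjusted p = 0.629) without probe sets whose suffix marks possible matches to several transcripts and 0.371 (adjusted p = 0.101) with the mean. Of 17 metalloproteinases and inhibitors none rose and 4 fell (Adamts1, Mmp2, Timp1 and Timp3), beside 2.53% of all genes that fell. The common one, Timp1, changed by -0.54 (adjusted p = 0.0218), and gave 0.0519, 0.066 and 0.0563 without control replicate 1, control replicate 3 and Ube2f replicate 1. Median centring gave 0.0983 for Lox, 0.0951 for P3h1 and 0.115 for Timp1.

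Hoxb9, Notch4, Tead3, Itgb3 and Flt1 were also among the 12 largest decreases, each with all 6 targeted arrays below the controls. Hoxb9, a homeobox factor, had a control mean of 309 ± 195 and targeted means of 93.4 ± 5.90 and 120 ± 23.5 (SD, n = 3), a change of -1.25 (adjusted p = 0.0315). Notch4, a Notch receptor, changed by -0.92 (adjusted p = 0.0208), Tead3, a DNA-binding partner of YAP, by -0.94 (adjusted p = 0.0318), and Itgb3, the integrin beta-3 subunit, by -0.96 (adjusted p = 0.0456). Flt1, a VEGF receptor, changed by -0.79 (adjusted p = 0.0172), while 2 of its 3 other probe sets were higher. Control replicate 3 of Hoxb9, at 527.0, was far above the other controls, and the change was -0.81 within replicates 1 and 2.

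These calls were lost when single arrays were left out. Without control replicate 1 the adjusted p was 0.119 for Hoxb9, 0.133 for Notch4, 0.18 for Tead3, 0.239 for Itgb3 and 0.115 for Flt1. Without control replicate 3 it was 0.0793 for Hoxb9 (-0.80), 0.0614 for Notch4 and 0.0717 for Tead3. Itgb3 gave 0.0941 without control replicate 2. Without Ube2m replicate 1 it was 0.0633 for Hoxb9, 0.0507 for Notch4 and 0.0708 for Tead3. Without Ube2m replicate 2 it was 0.063, 0.0549, 0.0733 and 0.101 for Hoxb9, Notch4, Tead3 and Itgb3, and without Ube2f replicate 1 0.0748, 0.055, 0.0772 and 0.0916. Itgb3 gave 0.0636 without Ube2m replicate 3, and Tead3 and Itgb3 gave 0.0583 and 0.0821 without Ube2f replicate 2. With the mean over probe sets Flt1 stood at -0.161 (adjusted p = 0.717) and Itgb3 gave 0.118, and with median centring Itgb3 gave 0.0821.

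Agrn, the basement membrane proteoglycan agrin, picked after its values were seen, had means of 1502 ± 110 in the controls, 837 ± 68.0 with Ube2m shRNA and 1138 ± 136 with Ube2f shRNA (SD, n = 3), a change of -0.62 (adjusted p = 0.00655). Fzd1, a Wnt receptor, changed by -0.77 (adjusted p = 0.00521), and Igfbp7, an IGF-binding protein, by -0.64 (adjusted p = 0.00142). All 3 were lower with both hairpins and lowest with Ube2m shRNA. The mean over probe sets gave an adjusted p of 0.201 for Agrn and 0.13 for Igfbp7.

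In the limma contrast of Ube2m with Ube2f shRNA, the size of the response differed for 61 of the 316 common genes (19.3%). This compares with 1672 (15.8%) of all genes tested. The control arrays do not enter that difference of means. They do enter the spread, which was estimated from all 9 arrays, and they helped to choose the 316. Of all genes, 676 (6.37%) were higher and 996 (9.38%) lower with Ube2m shRNA than with Ube2f shRNA. Among the common genes that rose, 16 responded more to Ube2m shRNA and 10 to Ube2f shRNA, and among those that fell 16 and 19. A value past the threshold in the pooled contrast can therefore come mostly from one hairpin.

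Erlin1, an ER membrane protein of lipid rafts, read 2792.4, 2559.6 and 3000.0 in the controls, 2158.5, 2153.4 and 2101.9 with Ube2m shRNA, and 801.1, 725.6 and 895.5 with Ube2f shRNA. The 3 groups were separate, and the change was -0.38 with Ube2m shRNA and -1.77 with Ube2f shRNA. Ptgr1, a prostaglandin reductase, read 4607.9, 4428.8 and 3895.0 in the controls, 13572, 13197 and 13407 with Ube2m shRNA, and 5537.9, 5339.9 and 4884.4 with Ube2f shRNA. Here the Ube2m arrays were far above both other groups, at 1.64 against 0.29.

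The NRF2 targets, genes of the antioxidant response, showed the same one-sidedness. Of 32 tested 15 rose in the pooled contrast, beside 1.84% of all genes. Of the same 32, 24 were higher with Ube2m shRNA than with Ube2f shRNA, beside 6.37% of all genes, the medians were 1.05 and -0.10, and Blvrb alone was a common gene. Blvrb, biliverdin reductase B, read 2357.5, 2520.3 and 2472.2 in the controls, 7829.8, 7559.7 and 7605.4 with Ube2m shRNA, and 2973.1, 3548.2 and 2709.9 with Ube2f shRNA, at 1.64 and 0.32. Adh7, an alcohol dehydrogenase, and Cyb5a, cytochrome b5, also rose more with Ube2m shRNA, at 1.81 against 0.60 and 1.10 against 0.25. Median centring gave a pooled adjusted p of 0.0908 for Cyb5a. For 26 tested cholesterol and fatty acid synthesis genes the medians of the hairpins were opposed, at 0.22 with Ube2m shRNA and -0.46 with Ube2f shRNA. Of the 26, 16 were higher with Ube2m shRNA than with Ube2f shRNA, beside 6.37% of all genes. None passed in the pooled contrast, where 4.36% of all genes did.

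Atoh8, a basic helix-loop-helix factor, read 1206.7, 1025.6 and 1190.1 in the controls, 334.7, 378.4 and 404.1 with Ube2m shRNA, and 650.3, 778.8 and 912.3 with Ube2f shRNA, at -1.58 and -0.55. Slc35g1, a membrane protein, stood at -1.32 and -0.50, Rin1, a RAS effector, at -0.83 and -0.22, and Camk2n2, an inhibitor of CaM kinase II, at -1.10 and -0.29. In each the Ube2f arrays lay between the controls and the Ube2m arrays. Cnn1, calponin, rose more with Ube2m shRNA, at 0.78 against 0.20. Of 37 tested actin and contractile genes 1 rose (Cnn1) and 3 fell (Flna, Mustn1 and Rhob), beside 1.84% and 2.53% of all genes tested. Only Cnn1 was a common gene. Without control replicate 1 the pooled adjusted p was 0.0831 for Cnn1, 0.0503 for Rin1 and 0.0508 for Camk2n2. Median centring gave 0.156 for Cnn1 and 0.0636 for Rin1, and the mean over probe sets gave 0.0622 for Rin1.

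**Figure D5:**
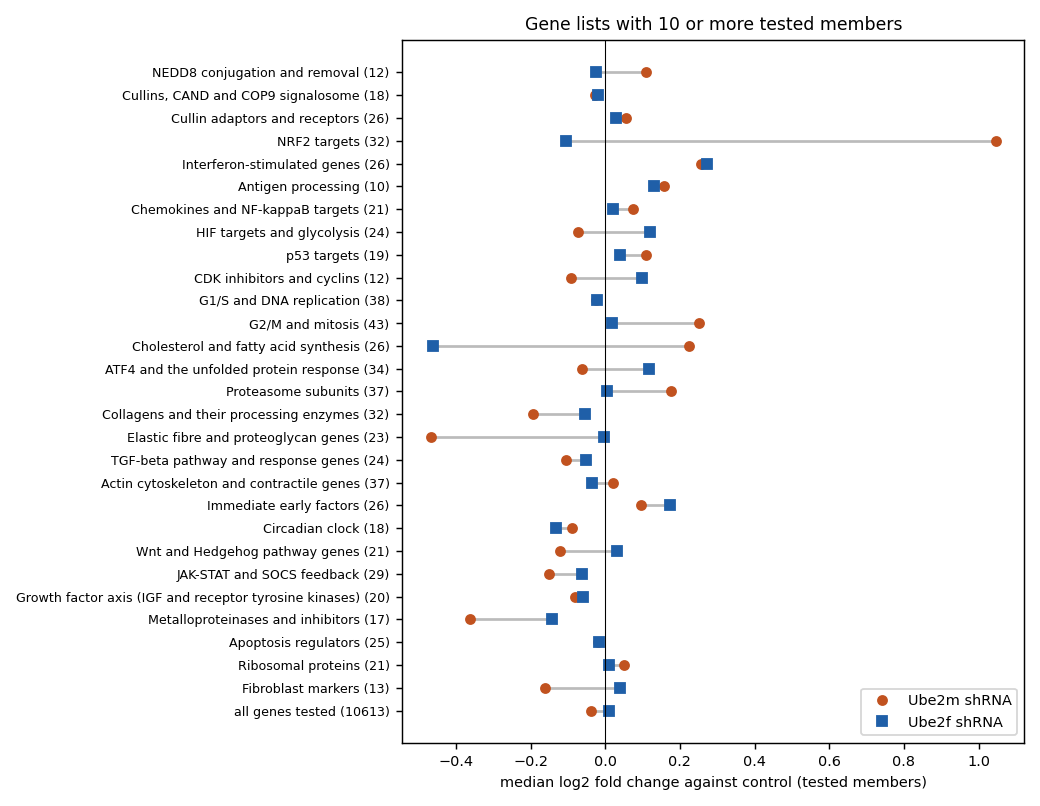
Median log2 fold change against control over the tested members of each gene list with 10 or more of them (number in brackets), for Ube2m shRNA (circles) and Ube2f shRNA (squares), with all 10613 genes at the foot. Interferon-stimulated genes lie at 0.26 and 0.27, while NRF2 targets lie at 1.05 and -0.10.

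Several lists held no gene that passed in the pooled contrast: 38 G1/S and DNA replication genes, 43 G2/M and mitosis genes, 37 proteasome subunits, 25 apoptosis regulators, 21 ribosomal proteins, 18 clock genes and 12 CDK inhibitors and cyclins. Of all genes tested 4.36% passed, a share at which lists this short hold few such genes. The medians of these lists lay between -0.088 and 0.15. A gene that missed the threshold is not shown to be unchanged.

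Markers of the cell line and of other cell types were read beside these results. Each sum covers every listed marker with a probe set, tested or not. Of all genes tested 4.36% passed and 2.98% were common genes, shares at which lists this short hold few of either. All 13 fibroblast markers were tested, 1 fell (Prrx1) and none was a common gene, with a summed signal of 176202 to 214938 in the controls, 171274 to 192651 with Ube2m shRNA and 194246 to 221437 with Ube2f shRNA. Of 13 macrophage markers 4 were tested and none passed, with sums of 1137 to 1357, 1179 to 1296 and 1116 to 1266 in the 3 groups, and Ptprc and Adgre1 were below the low-signal level. Of 11 endothelial markers only Egfl7 and Flt1 were tested, with sums of 816 to 1090, 640 to 752 and 462 to 807, and Pecam1 and Cdh5 were below that level. Flt1 is the common gene among them. Of 11 epithelial markers Cdh1, Epcam and Krt14 were tested and none passed, with sums of 3344 to 5424 in the controls, 5897 to 6674 with Ube2m shRNA and 2837 to 4293 with Ube2f shRNA. Of 9 adipocyte markers with a probe set only Lpl was tested and it did not pass. The sums over all 9 were 3173 to 4283, 4616 to 4921 and 3944 to 4839. For the epithelial and adipocyte sums the Ube2m arrays lay above the controls, and the Ube2f arrays overlapped them. The endothelial sums, which include Flt1, lay below the controls in all 6 targeted arrays. The highest Ube2f array, at 807, was close to the lowest control, at 816. The part of such cells in the results was not tested. Of 18 skeletal muscle markers 7 were tested, with sums of 2684 to 3192, 4685 to 5083 and 1446 to 1618 in the 3 groups. The median change over the 7 was -0.00022 with Ube2m shRNA and -0.29 with Ube2f shRNA. Of the 7, 2 differed between the hairpins, both higher with Ube2m shRNA, beside 6.37% of all genes tested. Tnnt2, cardiac troponin T, changed by 0.93 with Ube2m shRNA and -2.42 with Ube2f shRNA and was called lower in the pooled contrast (-0.75, adjusted p = 0.00223). It was not a common gene. In bulk samples, fewer cells of a type and less RNA per cell cannot be told apart.

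Replicate 3 allowed a look at arrays left out of both conditions of a common gene. The probe sets and the genes tested were still chosen on all 9 arrays, replicate 3 included. From replicates 1 and 2 alone, 471 genes that rose and 583 that fell met both conditions. In replicate 3 both hairpins moved the same way for 301 (63.9%) and 379 (65%) of them, beside 41.9% and 37.1% of all genes with that direction in replicates 1 and 2. The median change of the genes that rose went from 0.464 and 0.45 (Ube2m and Ube2f shRNA) in replicates 1 and 2 to 0.254 and 0.208 in replicate 3, and that of the genes that fell from -0.535 and -0.491 to -0.264 and -0.203. Both hairpins are set there against the same single control array. The direction thus recurred more often than over all genes, at smaller sizes.

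Other probe sets of the same genes read the same RNA with other probes. For the common genes that rose, 83.5% of 176 further probe sets were higher in the targeted arrays (68.6% over all genes with that direction), and 30.7% lay wholly above the controls (5.39%). For those that fell, 69.9% of 176 were lower (51.8%), and 18.8% lay wholly below (3.94%). A single probe set in each direction lay wholly on the opposite side.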

How the data were processed

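RNA of 9 NIH 3T3 cultures was measured on Affymetrix mouse arrays. The authors deposited 1 intensity per probe set and array, on a linear scale. MAS5 is the tool that the submitters' processing notes name, with no settings stated. Each array had been scaled to a trimmed mean of 500 (2% left out at each end), which leaves differences in the shape of the distribution in place. For arrays no depth is counted, and their number limits the precision.

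From these, log2(signal + 16) was taken. Of 45101 probe sets, 64 controls, 932 with several genes and 9160 without a name were left out; 34741 of the 34945 with 1 gene matched the reference by gene ID. The probe set with the highest mean was kept for each of 18193 genes, and genes at or above the median of all probe sets (6.12, a signal of 53.8) were tested. Limma 3.58.1 in R 4.3.3 fitted 1 mean per group to the 9 arrays (eBayes with trend, prior degrees of freedom 6.55). Two-sided p-values were adjusted over the 10613 genes (Benjamini-Hochberg) and called under 0.05. The fit was tested on simulated data.

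Named were the targets, the 12 common genes of each direction ranked by the smaller of the hairpins' changes, up to 3 per gene list, the 5 per direction that differed most between hairpins, and those at the border of the rule; clone-type names were left out. Genes said to be picked after their values were seen, and Gbp2 and Ifit1, were added. The common genes and the 34 gene lists were chosen with earlier results of these data known, and no set test was run. Alternatives changed the constant, filter, scaling, probe sets, model and arrays.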

Additional observations from a re-analysis of the deposited data

Results flagged for a closer look

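For 23 named common genes the size of the response differed between the hairpins in the limma contrast (adjusted p under the threshold of 0.05). The log2 difference, Ube2m minus Ube2f shRNA, is given for each. Among the genes that rose, it was 1.32 for Blvrb, 1.35 for Ptgr1, 1.21 for Adh7, 0.844 for Cyb5a, 0.854 for Slc2a1, 0.782 for Tapbp and 0.582 for Cnn1, and it was -0.48 for Rnpep and -0.533 for Gbp2. Among those that fell more with Ube2m shRNA it was -1.17 for Eln, -0.947 for Atf5, -1.03 for Atoh8, -0.822 for Slc35g1, -0.816 for Camk2n2, -0.665 for Igfbp7, -0.604 for Rin1, -0.553 for Fzd1, -0.464 for Osmr and -0.434 for Agrn. Among those that fell more with Ube2f shRNA it was 1.39 for Erlin1, 0.656 for Dtl, 0.644 for Ahnak and 0.633 for Tns3.

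In the probe sets without a gene name, which the comparisons did not use, 2269 were tested and 8 passed the pooled contrast without overlap (0.353%), 3 higher and 5 lower.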

How the results depend on the processing

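As reported, 463 genes passed in the pooled contrast, 316 were common and 61 of these differed between the hairpins. These counts were 166, 120 and 30 with arrays centred on the median, 263, 176 and 28 with the mean over all probe sets, and 1281, 1054 and 237 with replicates 1 and 2 only. With the targeted arrays as 1 group of 6 they were 28 and 28, since a difference between hairpins then enters the spread. Without the eBayes trend, 279 passed and 208 were common. Centring changed the split of the 463, from 195 that rose and 268 that fell to 37 and 129. Leaving out each array gave counts from 141 to 559, from 98 to 404 and from 34 to 114. Without control replicate 3, 114 common genes differed between hairpins; without Ube2m replicate 1, Ube2m replicate 2 and Ube2f replicate 1, 35, 36 and 34 did. The other alternatives (constant, filters, quantile normalization, fewer probe sets by suffix) stayed within 1.5 times. Dtl was the only named gene to change direction, to 0.459 with the mean over probe sets. With no filter on low signal, adjusted p-values were 0.0788 for Socs1, 0.0633 for Hoxb9, 0.0624 for Tead3, 0.0929 for Itgb3, 0.094 for Gbp2 and 0.0893 for Ifit1. Without the trend they were 0.0502 for Pctp, 0.0525 for Rbm45, 0.0595 for Hoxb9, 0.061 for Tead3, 0.0685 for Itgb3 and 0.0607 for Timp1. Quantile normalization gave 0.0555 for Itgb3 and 0.123 for Gbp2, replicates 1 and 2 only 0.054 for Hoxb9 and 0.0839 for Ifit1, median centring 0.0951 for Tapbp and 0.0634 for Tns3, and the mean over probe sets 0.504 for Tns3. For the named genes, 210 values lost the threshold and 1126 kept direction and call.

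The labels do not say that a replicate number marks a shared culture or day. Deviations of same-numbered arrays correlated from -0.00462 (control and Ube2m replicate 1) to 0.557, against -0.387 to 0.276 for other numbers, so the numbers were not taken to pair the samples. The replicate 3 arrays did deviate together, at 0.317, 0.349 and 0.557 with one another and at -0.387 to -0.0634 with arrays of other groups and numbers, while replicates 1 and 2 were not told apart in this way. With the replicate number as a block, 1175 genes passed, 524 were common (all 316 among them) and 102 of these differed. The number of arrays and dim control signals (Igtp, Oas1a, Ifit1, Socs1) limit these results; the causes of the changes above were otherwise not tested.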
